A study of Mus musculus with 40 samples.

Results

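The genes described here are 40 ribosome biogenesis factors, proteins, most of them of the nucleolus, that make ribosomal RNA and build it into ribosomal subunits, and they were matched to the tables by gene symbol. The list was chosen with earlier results of these data known. Of these, 39 were among the 22844 genes of the deposited tables and all 39 passed the filter on low counts (1 CPM in at least 5 libraries, which 13543 genes passed). Rrs1, a large subunit factor, was not analysed here. RNA with poly(A) tails was sequenced from the extensor digitorum longus (EDL), a fast muscle of the mouse lower leg, with 1 library for each of 40 mice. Control mice (CON, Tsc1fl/fl on the Tsc1tm1Djk/J strain) were littermates whose Tsc1 gene was floxed but which carried no Cre recombinase, and TSCmKO mice lacked Tsc1 in skeletal muscle fibers only, so that other cell types of the muscle kept the gene. The promoter that drove Cre is not given in the sources used here. Mice of 3 or 9 months were injected intraperitoneally with vehicle or with rapamycin (RM) on 3 days before dissection, at 4 mg per kg according to the labels. Elsewhere the text of the study gives a higher daily amount for this treatment, so the dose is uncertain. The 8 groups of 5 mice are named 3mCON, 3mCON+RM, 3mTSCmKO, 3mTSCmKO+RM, 9mCON, 9mCON+RM, 9mTSCmKO and 9mTSCmKO+RM.

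Ribosome production begins when RNA polymerase I copies the ribosomal DNA into a long precursor RNA. Guide RNA particles of the box C/D and box H/ACA types (snoRNPs) then methylate or pseudouridylate it, and the small subunit processome and the large subunit assembly factors cut, fold and load it with ribosomal proteins on the way to the cytoplasm. The kinase complex mTORC1, which the TSC1 protein restrains and rapamycin inhibits, is known to promote ribosomal RNA synthesis and the translation of ribosomal protein mRNAs. Ribosomal RNA has no poly(A) tail and was not measured here, so the values below are mRNA levels of the factors and give no rate of ribosome production.

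Total counts per library ranged from 8883870 to 35224669, and the lowest count of any member in any library was 17 (Polr1e). Tsc1 read 17.8 to 35.8 CPM (counts relative to library size, scaled with TMM factors) in the 20 TSCmKO libraries and 51.3 to 134 CPM in the 20 CON libraries, with no overlap. The summed level of 6 muscle fiber markers was 84200 to 145000 TPM (transcript abundance scaled by transcript length), and none of them was at 0 in a whole group. The labels put the insert size at 175 to 239 nt in 3-month libraries and at 223 to 308 nt in 9-month libraries, so that age and library preparation cannot be told apart, and levels are compared below within an age. In whole muscle, fewer cells of a type and less RNA per cell cannot be told apart.

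The most abundant members were the multifunctional nucleolar proteins nucleophosmin (Npm1, 589 TPM on average over the 40 libraries) and nucleolin (Ncl, 184 TPM), followed by the H/ACA protein Nop10 (71.3 TPM) and Mybbp1a (61.7 TPM). The other 35 members averaged from 5.25 TPM (Polr1e) to 49.2 TPM (Nop56). Summed over the 39 members, the level was 1328 to 1428 TPM in 3mCON, 1710 to 1982 TPM in 3mCON+RM, 1117 to 1400 TPM in 3mTSCmKO and 1627 to 2064 TPM in 3mTSCmKO+RM. At 9 months it was 1322 to 1441 TPM in 9mCON, 1792 to 2346 TPM in 9mCON+RM, 1264 to 1878 TPM in 9mTSCmKO and 2054 to 2278 TPM in 9mTSCmKO+RM. In each genotype and at each age, every library of the rapamycin group was above every library of the vehicle group. This sum is weighted towards Npm1 and Ncl, and the heat map of single genes shows that the members did not all follow it.

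**Figure D1:**
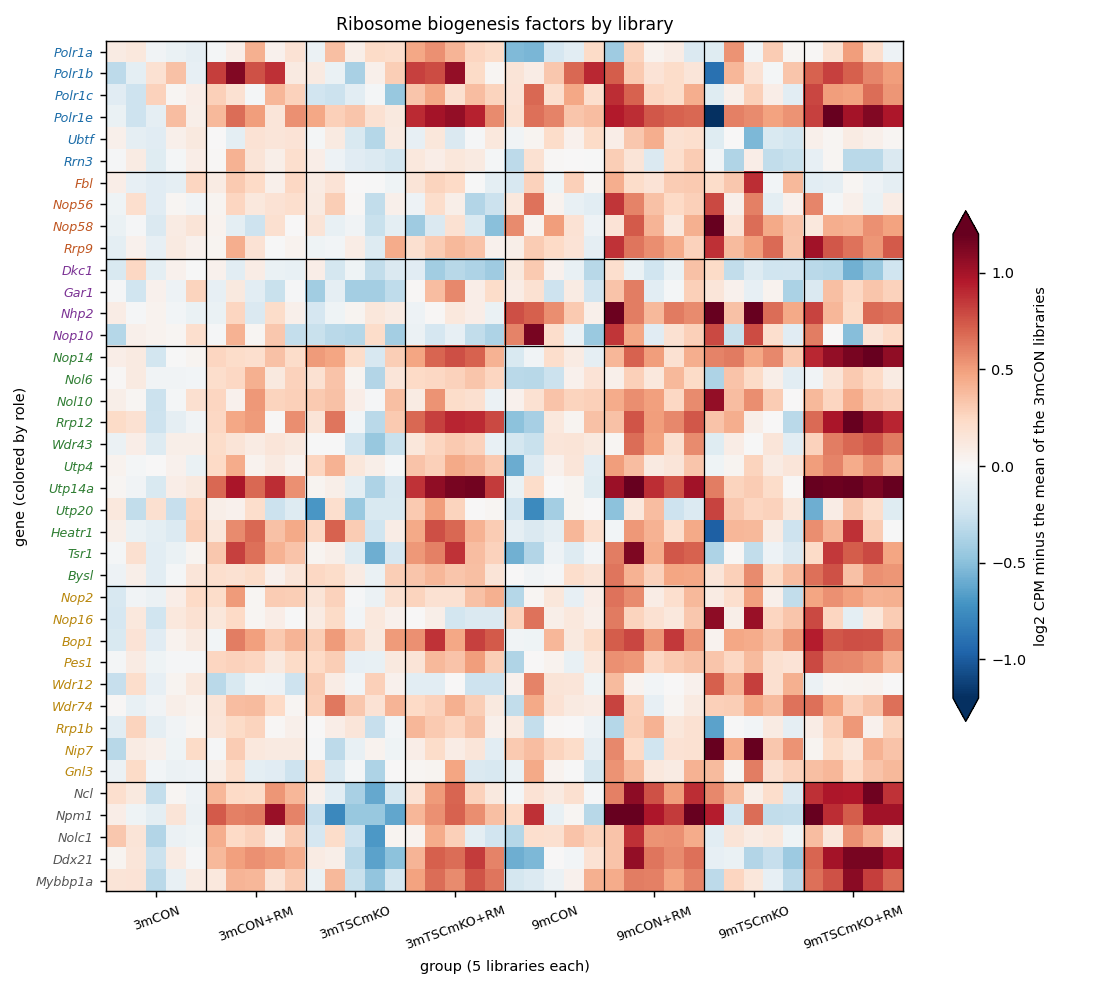
Heat map of the 39 members (vertical axis, genes colored by role) in the 40 libraries (horizontal axis, 5 libraries per group). Color gives log2 CPM minus the mean of the 3mCON libraries, and saturates beyond 1.2 in either direction. Utp14a, Ddx21, Ncl, Npm1 and Mybbp1a are red in the rapamycin groups of both genotypes, and Nip7 is darkest in 9mTSCmKO replicates 1 and 3.

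Rapamycin raised the mRNA of many members in TSCmKO muscle at both ages. With all libraries the largest rises were those of the helicase Ddx21 (log2 fold change 1.26 ± 0.14, adjusted p = 1.23e-08, edgeR quasi-likelihood test) and the small subunit factor Utp14a (0.99 ± 0.11, adjusted p = 8.27e-09) at 9 months, and of Utp14a (1.15 ± 0.11, adjusted p = 3.26e-10) and Npm1 (1.03 ± 0.21, adjusted p = 0.000251) at 3 months. At 9 months 19 of 39 members were called higher (adjusted p under 0.05), against 15.8% of all genes tested, and 4 were called lower, against 16.8%. The 4 were the methyltransferase fibrillarin (Fbl), the H/ACA protein Nhp2 and the large subunit factors Wdr12 and Nip7. At 3 months 15 members were called higher, against 10.6% of all genes, and 0 lower, against 13.0%. At an unadjusted p under 0.05 the test called 18 members in either direction at 3 months. The median log2 fold change of the members was 0.29 at 9 months and 0.22 at 3 months, beside -0.04 and 0.01 over all genes tested. When 9mTSCmKO and 9mTSCmKO+RM were modelled alone, 14 members were called in place of 23, and Polr1b, Polr1e, Ubtf, Fbl, Nhp2, Bysl, Nop2, Pes1 and Rrp1b lost their calls. Without 9mTSCmKO replicates 1 and 3, which read high for several members, 17 were called, 15 higher and 2 lower, with Nhp2 and Nip7 no longer called lower and Polr1b, Ubtf, Bop1 and Rrp1b no longer called higher. Ddx21 (1.27 ± 0.17), Utp14a (1.12 ± 0.12) and Npm1 (1.32 ± 0.20) were still called higher. Replicates 1 and 3 were the 2 highest 9mTSCmKO libraries for Npm1 and Utp14a. The larger rises of these genes without them therefore follow from which libraries were left out.

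The rise was also measured in control muscle. In 9mCON+RM against 9mCON, 16 of 39 members were called higher, against 5.03% of all genes, and 0 lower, against 6.82% (edgeR, 19 at an unadjusted p under 0.05). Npm1 (1.08 ± 0.21, adjusted p = 0.000532), Utp14a (0.996 ± 0.11, adjusted p = 1.99e-07) and the small subunit GTPase-like factor Tsr1 (0.98 ± 0.14, adjusted p = 1.26e-05) rose most. In 3mCON+RM against 3mCON the test called 1 member higher, against 0.362% of all genes, and 0 lower, against 0.318%. That member was Utp14a (0.78 ± 0.11, adjusted p = 7.69e-05), and 16 members passed an unadjusted p under 0.05. The median log2 fold change of the members was 0.29 at 9 months and 0.20 at 3 months, beside -0.0151 and -0.0043 over all genes tested. The call count in 3-month controls depended on the model, with 4 members by DESeq2, 5 when these groups were modelled alone, and 2 without 3mCON+RM replicate 5. At 9 months 8 members were called when the groups were modelled alone, where Rrp9, Nop14, Nol6, Wdr43, Utp4, Bysl, Nop2 and Pes1 lost their calls, and Nop14, Nol6 and Wdr43 were not called by either limma fit.

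The 4 rapamycin comparisons share no library. Called higher in 9-month TSCmKO, 3-month TSCmKO and 9-month CON alike were 11 members (Nop14, Utp14a, Rrp12, Wdr43, Tsr1, Bop1, Pes1, Ncl, Npm1, Ddx21 and Mybbp1a), 28.2% of the 39, beside 2.57% of all genes tested. Only Utp14a of the members was also called in 3-month CON, and 38 of 13543 genes had this pattern. A further 17 members were called higher in none of the 4 comparisons, 43.6% beside 79.5% of all genes. The test of the difference between genotypes in the response to rapamycin called 1 member lower at 9 months (Fbl), against 2.31% of all genes, and 0 higher, against 2.56%. At 3 months it called 1 member higher (Gar1), against 1.36%, and 0 lower, against 2.09%. At an unadjusted p under 0.05 these tests called 10 and 4 members, so that for most members a difference between the genotypes was not resolved with 5 mice per group. At 9 months the median interaction of the members was -0.15 on the log2 scale, beside -0.0010 over all genes tested. It includes 9mTSCmKO replicates 1 and 3, the highest 2 libraries of their group for 14 members. At 3 months the median was 0.0077, beside 0.010 over all genes.

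Markers of other cells moved with rapamycin in some of these comparisons. In 9mCON+RM all 5 fibroblast markers tested were called lower than in 9mCON, with a summed level of 97.7 to 459 TPM against 592 to 1210 TPM, and 4 of 5 macrophage markers tested were called lower, with a summed level of 6 listed markers of 11.5 to 37.1 TPM against 39.9 to 122 TPM. In 3-month TSCmKO the macrophage sum was 69.8 to 133 TPM with rapamycin and 47.2 to 97.3 TPM with vehicle, with 2 of 5 markers called higher and 0 lower, and 1 of 5 fibroblast markers called higher. In 9-month TSCmKO none of these fibroblast or macrophage markers was called by edgeR (0 of 5 each, with 1 and 2 at an unadjusted p under 0.05). All 5 of each type nevertheless read lower with rapamycin. The macrophage sum was 27.4 to 54.4 TPM with rapamycin and 50.7 to 77.5 TPM with vehicle, and the fibroblast sum 250 to 544 TPM and 255 to 633 TPM. The muscle fiber sum was 117000 to 131000 TPM in 9mTSCmKO+RM and 84200 to 103000 TPM in 9mTSCmKO, with 4 of 6 markers called higher, and 3 of 6 were called higher with rapamycin in 3-month TSCmKO and 1 of 6 in 9-month CON. Among the markers of adipocytes (4), endothelial cells (5), satellite cells (4), Schwann cells (4) and proliferating cells (2), calls with rapamycin numbered 1 of 4 higher for satellite cells, 1 higher and 1 lower of 5 for endothelial cells, 1 of 4 lower for Schwann cells and 2 of 2 lower for proliferation in 9-month TSCmKO, and 1 of 4 lower for Schwann cells in 9-month CON. The part of these markers in the change of the members was not tested.

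**Figure D2:**
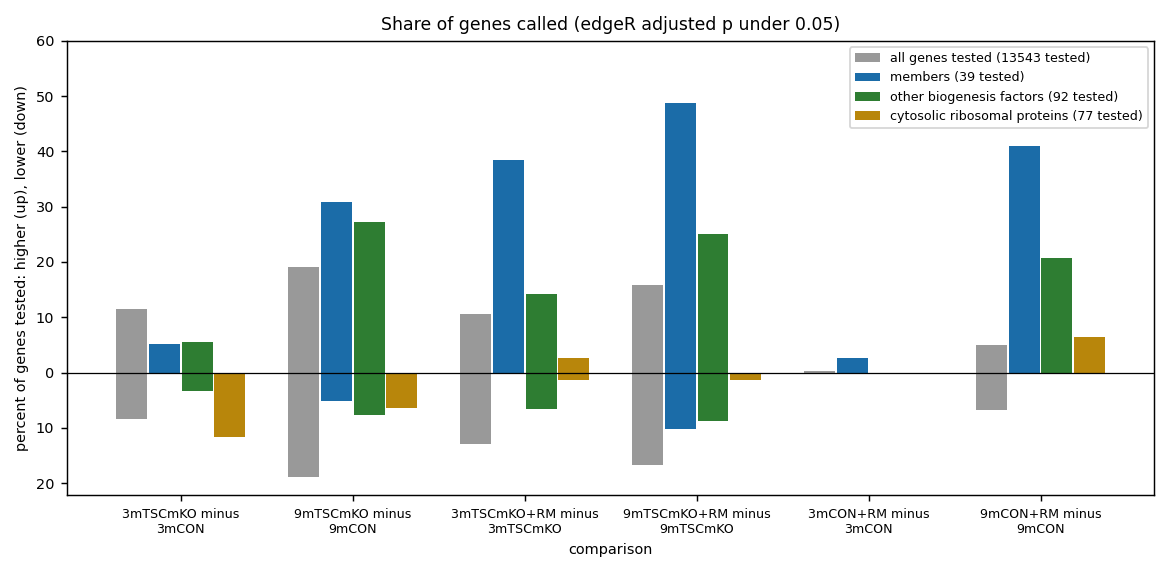
Percent of genes tested (vertical axis) that were called higher (above 0) or lower (below 0) in 6 comparisons (horizontal axis), for all genes, the members, other biogenesis factors and cytosolic ribosomal proteins. The members stand highest with rapamycin in TSCmKO at both ages and in 9-month CON, where 19, 15 and 16 of 39 were called higher.

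For genotype 14 of 39 members were called at 9 months and 2 at 3 months, shares that were, over both directions together, no larger than those of all genes tested. In 9mTSCmKO against 9mCON 12 of 39 were called higher, against 19.1% of all genes tested, and 2 lower, against 18.9%. The higher members included Nip7 (0.86 ± 0.19, adjusted p = 0.000354), the processome scaffold Utp20 (0.68 ± 0.20, adjusted p = 0.0071), Nhp2 (0.61 ± 0.19, adjusted p = 0.011) and the small subunit factor Nop14 (0.52 ± 0.11, adjusted p = 0.000225), and the lower ones were the polymerase I subunit Polr1c and the transcription factor Ubtf. The median log2 fold change was 0.18, beside -0.02 over all genes. The count was 9 without 9mCON replicate 5 and 9 without 9mTSCmKO replicate 3, 9 with no filter on low counts, and 4 when these groups were modelled alone (Nip7, Utp20, Nop14 and Rrp9). Replicates 1 and 3 of 9mTSCmKO were the highest 2 libraries of their group for 14 of the 39 members, among them Nip7, Nhp2, Nop16, Nop10, Npm1 and Wdr12. With both left out, an alternative added after the data were seen, 4 members were called for genotype at 9 months (Nop14, Polr1a and Bop1 higher and Rrn3 lower), the median was 0.07, and Nop14 kept its change (0.52 ± 0.13, adjusted p = 0.00156), while Nip7 read 0.23 ± 0.14, adjusted p = 0.204. Of the 14 members called with all libraries, Nop14 and Polr1a were still called. In 3mTSCmKO against 3mCON 2 members were called higher (Bop1 and Wdr74), against 11.4%, and 0 lower, against 8.32%, with 5 at an unadjusted p under 0.05 and a median of -0.01. This count fell to 0 without 3mCON replicate 1 or 3 or 3mTSCmKO replicate 2 or 5, and to 1 without 3mCON replicate 2, 4 or 5 or 3mTSCmKO replicate 3. The genotype by age interaction called 2 members higher (Utp20 and Nip7), against 3.01%, and 0 lower, against 1.93%. Without 9mTSCmKO replicates 1 and 3 it called 0 (edgeR, 1 at an unadjusted p under 0.05). Beside the 9-month difference, the muscle fiber sum was lower in 9mTSCmKO (84200 to 103000 TPM against 112000 to 130000 TPM in 9mCON, 4 of 6 markers called lower), 3 of 5 fibroblast, 3 of 5 endothelial, 2 of 4 adipocyte and 2 of 4 Schwann cell markers were called lower, and 1 of 5 macrophage and 1 of 2 proliferation markers higher, and their part in it was not tested.

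Comparisons of genotype and of rapamycin within TSCmKO share the TSCmKO vehicle libraries, so a value that is high in those libraries raises the first difference and lowers the second. Side by side at 9 months, Fbl, Nhp2, Wdr12 and Nip7 were called higher in 9mTSCmKO and lower after rapamycin, Polr1c and Ubtf were called lower and then higher, and Nop14, Utp14a, Pes1 and Bysl were called higher in both. The remaining 4 genotype calls (Polr1a, Nop58, Rrp9 and Utp20) had no rapamycin call in TSCmKO at either age. How many of all genes tested had each pattern was not counted. Without 9mTSCmKO replicates 1 and 3, Fbl, Nhp2, Wdr12 and Nip7 were not called for genotype (edgeR, adjusted p = 0.315, 0.982, 0.338 and 0.204). Neither were Polr1c and Ubtf (adjusted p = 0.0604 and 0.0836). In that fit Fbl and Wdr12 were still called lower with rapamycin, and Polr1c higher. Of Nop14, Utp14a, Pes1 and Bysl, only Nop14 kept its genotype call.

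**Figure D3:**
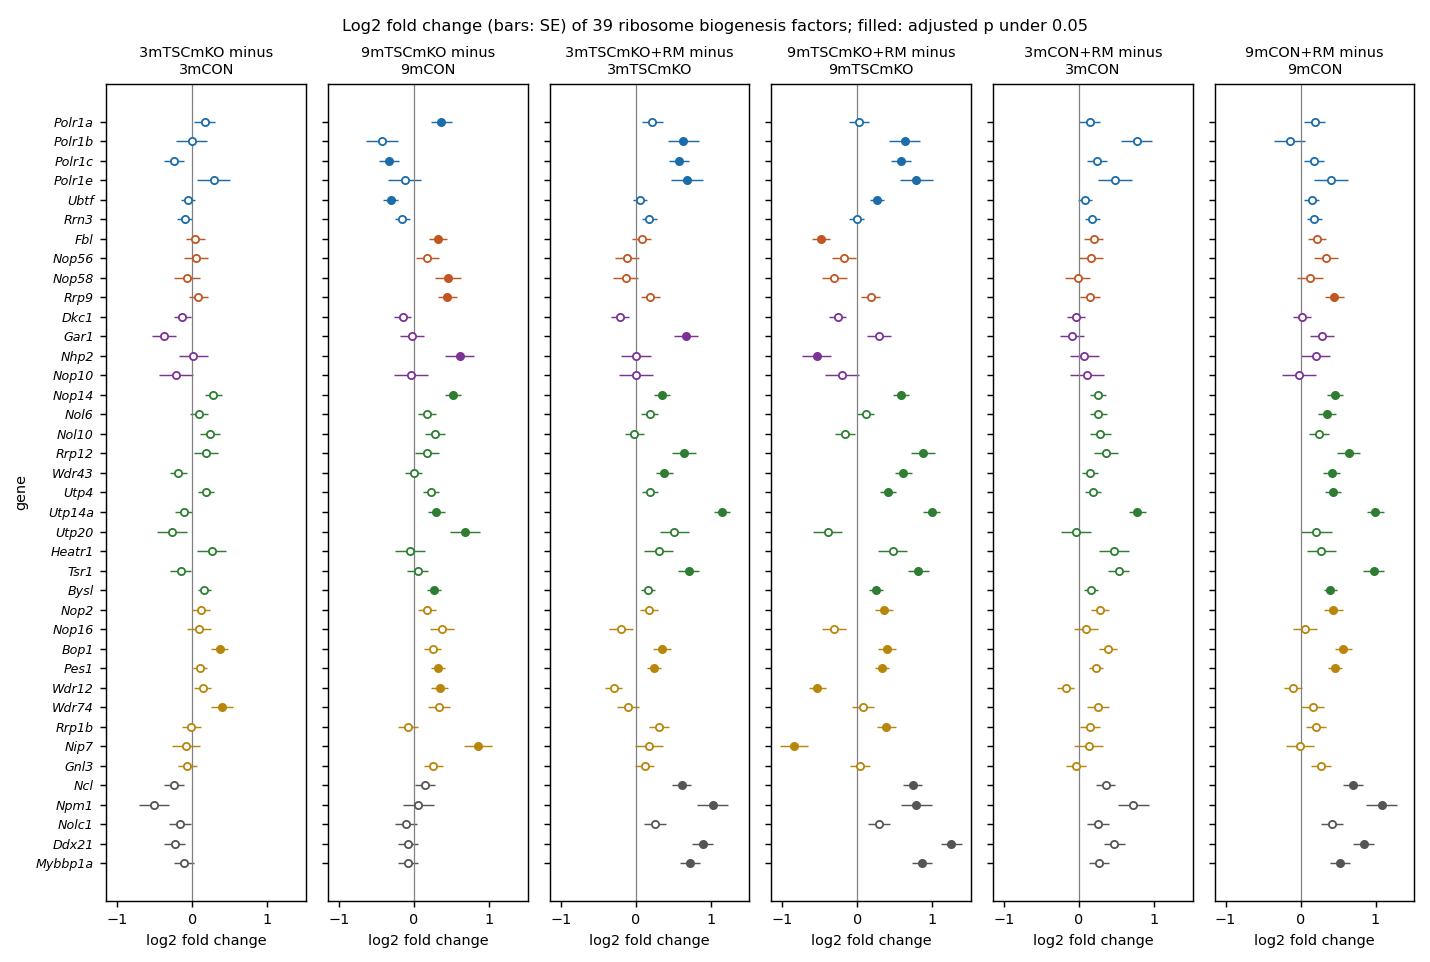
Log2 fold change (horizontal axis) of the 39 members (vertical axis, colored by role as in the heat map) in 6 comparisons, with standard errors as bars. Filled points have an adjusted p under 0.05. Points of the small subunit (green) and multifunctional (grey) factors lie mostly right of 0 in the 4 rapamycin panels, and Fbl, Nhp2, Wdr12 and Nip7 lie left of 0 in 9mTSCmKO+RM minus 9mTSCmKO.

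RNA polymerase I transcription was represented by 4 polymerase subunits, by Ubtf, which binds the ribosomal DNA promoter and opens its chromatin, and by Rrn3, which recruits the polymerase to that promoter. In TSCmKO, 4 of the 6 were called higher with rapamycin at 9 months and 3 at 3 months (15.8% and 10.6% of all genes), and in CON edgeR called 0 at either age (2 and 0 at an unadjusted p under 0.05 at 3 and 9 months). All 6 fold changes were above 0 in 3-month CON, and 5 of the 6 in 9-month CON, where the lowest was -0.15. The test of the difference between genotypes in the response called 0 of the 6 at either age (edgeR, 2 and 0 at an unadjusted p under 0.05 at 9 and 3 months). Polr1c (ENSMUSG00000067148, chr17:46243920-46248054 on GRCm38), a subunit shared by polymerases I and III, read 8.98, 13.1, 9.26, 11.2 and 9.24 in 9mCON, 15.1, 13.3, 9.62, 9.37 and 10.9 in 9mCON+RM, 7.18, 8.36, 9.83, 8.48 and 7.26 in 9mTSCmKO, and 14.3, 11.5, 11.3, 12.96 and 11.7 in 9mTSCmKO+RM (CPM here and below, replicates 1 to 5 in order). At 3 months it read 7.22, 6.64, 9.79, 8.12 and 8.45 in 3mCON, 9.86, 9.14, 7.87, 10.7 and 9.78 in 3mCON+RM, 6.72, 6.60, 7.25, 7.84 and 5.69 in 3mTSCmKO, and 10.2, 11.2, 9.17, 10.5 and 9.72 in 3mTSCmKO+RM. All TSCmKO libraries with rapamycin were above all TSCmKO libraries with vehicle at both ages. The log2 fold change was 0.59 ± 0.13, adjusted p = 0.000714 in older and 0.57 ± 0.13, adjusted p = 0.00121 in younger mice. Its level was called lower with loss of Tsc1 at 9 months (-0.33 ± 0.13, adjusted p = 0.0447), with overlap between the groups. Of the 10 fits that each left out 1 library, 8 lost this call, those without 9mCON replicate 2, 3, 4 or 5 or 9mTSCmKO replicate 1, 2, 4 or 5 (-0.24 with adjusted p = 0.165 without 9mCON replicate 2). It was also lost with DESeq2, RLE scaling, no filter on low counts, insert size as a term, a replicate block, the groups modelled alone and 9mTSCmKO replicates 1 and 3 left out (adjusted p up to 0.203). Polr1e, a subunit specific to polymerase I, rose at both ages in TSCmKO (0.79 ± 0.22 and 0.68 ± 0.22), as did Polr1b (0.63 ± 0.21 and 0.64 ± 0.21). In 3-month CON Polr1b read 0.77 ± 0.21, adjusted p = 0.0744, not called but larger than in 3-month TSCmKO. It did not rise in 9-month CON, with 10.4 to 18.6 CPM in 9mCON and 10.8 to 16.4 CPM in 9mCON+RM. Replicate 1 of 9mTSCmKO stood far below the rest of its group for Polr1e (0.884 CPM against 4.56 to 5.001 CPM), and it was also the lowest for Polr1b (4.99 CPM against 9.58 to 12.9 CPM) and for the processome protein Heatr1 (3.85 CPM against 6.74 to 10.8 CPM). Without replicates 1 and 3 Polr1e read 0.54 ± 0.16, adjusted p = 0.0101 at 9 months, and it was not called when the groups were modelled alone. The Polr1b calls were lost without 9mTSCmKO replicate 1 (0.43 with adjusted p = 0.0961) and, at 3 months, without 3mTSCmKO replicate 3 or 3mTSCmKO+RM replicate 1, 2 or 3.

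Ubtf (ENSMUSG00000020923, chr11:102304560-102319742) read 57.9, 61.2, 69.5, 61.8 and 70.2 in 9mCON and 62.96, 74.8, 80.8, 68 and 68.6 in 9mCON+RM. In 9mTSCmKO it was 53.99, 59.9, 40.9, 52.5 and 51.1, and 9mTSCmKO+RM gave 62.4, 60.5, 63.8, 62.2 and 60.5. At the age of 3 months it was 62.4, 55.5, 54.2, 62.1 and 64.8 in 3mCON, 59.98, 55.1, 67.2, 66.2 and 66.97 in 3mCON+RM, 58.5, 64.3, 52.6, 47 and 64.3 in 3mTSCmKO, and 55.7, 65.6, 52.7, 59.1 and 64.99 in 3mTSCmKO+RM. Of the 9mTSCmKO libraries 4 lay below all other libraries of that age, and all 9mTSCmKO+RM libraries lay above the whole group. Ubtf fell by 0.31 on the log2 scale with loss of Tsc1 (adjusted p = 0.0101) and rose with rapamycin (0.26 ± 0.10, adjusted p = 0.0355). The fall was not called without 9mCON replicate 5 (-0.25 with adjusted p = 0.0537) or 9mTSCmKO replicate 3, and the rise not in the fits without 9mTSCmKO replicate 1, 3, 4 or 5 or 9mTSCmKO+RM replicate 1, 3 or 4 (0.19 with adjusted p = 0.138 without 9mTSCmKO replicate 3). At 3 months neither difference passed the test (-0.06 ± 0.10 and 0.06 ± 0.10). Rrn3 (ENSMUSG00000022682, chr16:13780708-13814839) was called in none of the pairwise comparisons of genotype or rapamycin. It read 53.6, 75.9, 67.2, 67.1 and 66.6 in 9mCON and 82.3, 74.2, 59.3, 76.8 and 82.4 in 9mCON+RM. The 9mTSCmKO libraries read 64.8, 51.9, 70.5, 54.4 and 55.4, and 9mTSCmKO+RM gave 62.4, 68, 53.2, 53.2 and 59.03. Among 3-month mice the values were 66.3, 71.6, 60.4, 65.6 and 70.5 in 3mCON, 67.6, 89.1, 74.4, 70 and 76.6 in 3mCON+RM, 70.4, 64.02, 60.8, 59.6 and 57.4 in 3mTSCmKO, and 72.7, 70.7, 73.4, 72.1 and 65.6 in 3mTSCmKO+RM, so that the groups overlapped at each age. Polr1a, the largest subunit, was called higher in 9mTSCmKO (0.37 ± 0.14, adjusted p = 0.0351), but not without 9mCON replicate 1 or 2 or 9mTSCmKO replicate 2 or 4 (0.25 with adjusted p = 0.156 without 9mTSCmKO replicate 2).

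The box C/D snoRNPs carry the methyltransferase Fbl, the scaffold pair Nop56 and Nop58, and in the U3 particle the protein Rrp9. In 9mTSCmKO 3 of these 4 were called higher than in 9mCON (19.1% of all genes), and rapamycin lowered 1 of them in TSCmKO (16.8% of all genes). Without 9mTSCmKO replicates 1 and 3 none of the 3 genotype calls was made (Fbl 0.16 ± 0.12, adjusted p = 0.315, Nop58 0.07 ± 0.15, adjusted p = 0.772 and Rrp9 0.35 ± 0.14, adjusted p = 0.0549). Fbl (ENSMUSG00000046865, chr7:28169710-28179269) read 9.98, 13.96, 11.1, 14.1 and 11.7 in 9mCON and 15.7, 13.4, 12.9, 14.3 and 14.4 in 9mCON+RM. For 9mTSCmKO the values were 13.4, 14.4, 21.6, 11.2 and 15.1, and 9mTSCmKO+RM gave 10.4, 10.6, 11.6, 10.96 and 10.6. For 3-month mice it read 12.2, 10.6, 10.4, 10.6 and 13.8 in 3mCON, 12.3, 14.3, 13.6, 11.9 and 13.7 in 3mCON+RM, 12.3, 12.9, 11.5, 11.4 and 11.01 in 3mTSCmKO, and 12.8, 13.9, 13.6, 11.4 and 10.5 in 3mTSCmKO+RM. At 9 months the 9mTSCmKO libraries spread most, with replicate 3 the highest of all 40, and the 9mTSCmKO+RM libraries lay close together near the low end. The genotype difference (0.32 ± 0.12, adjusted p = 0.0382) was not called without 9mCON replicate 1, 3 or 5 or 9mTSCmKO replicate 3 or 5 (0.16 with adjusted p = 0.286 without 9mTSCmKO replicate 3). Rapamycin lowered Fbl in 9mTSCmKO (-0.48 ± 0.12, adjusted p = 0.00253), while in 9mCON the difference was 0.22 ± 0.12 and was not called. The difference between these responses was -0.70 ± 0.17, adjusted p = 0.0137. It was called in each of the 20 fits without 1 library, but not when the compared groups were modelled alone. Of the 31-mers in the Fbl transcripts, 73.5% also occur in annotated transcripts of another gene of any type, and 0.0% in other protein-coding genes of the table, so reads of a near-identical copy could have been counted here.

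Nop56 (ENSMUSG00000027405, chr2:130274430-130279313) read 35.5, 51.1, 33.4, 30.4 and 29.7 in 9mCON and 59.4, 49.2, 41.5, 38.4 and 39.5 in 9mCON+RM. Values in 9mTSCmKO were 56.4, 33.9, 49.6, 29.9 and 33.6, and 9mTSCmKO+RM gave 48.98, 31.98, 33.8, 30.6 and 34.5. The values at 3 months were 31.3, 37.4, 29.5, 33 and 31.5 in 3mCON, 33.1, 38.8, 35.4, 36.7 and 37.5 in 3mCON+RM, 34.99, 39.9, 32.8, 26.3 and 33.9 in 3mTSCmKO, and 31.02, 37.6, 34.03, 25.4 and 27.1 in 3mTSCmKO+RM. The groups overlapped, and it was called in no comparison of genotype or rapamycin. Nop58 was called higher in 9mTSCmKO (0.45 ± 0.17, adjusted p = 0.0318), but not without 9mTSCmKO replicate 1 (0.16 with adjusted p = 0.394) or without 9mCON replicate 2, 4 or 5. Rrp9 was called higher in 9mTSCmKO, where no library overlapped with 9mCON (0.45 ± 0.13, adjusted p = 0.00559), and in 9mCON+RM (0.45 ± 0.13, adjusted p = 0.0176). The second call was lost without 9mCON replicate 5 or 9mCON+RM replicate 1 (0.38 with adjusted p = 0.0598 without 9mCON+RM replicate 1).

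The box H/ACA snoRNPs contain the pseudouridine synthase dyskerin (Dkc1) and its partners Gar1, Nhp2 and Nop10, and the same proteins bind telomerase RNA. These 4 did not move as a group. Dkc1 (ENSMUSG00000031403, chrX:75095854-75109777) read 42.5, 48.8, 40.6, 36.8 and 30.99 in 9mCON and 45.3, 36.97, 33.1, 36.96 and 50.1 in 9mCON+RM. In 9mTSCmKO it was 46.1, 31.9, 35.1, 33.2 and 33.4, and 9mTSCmKO+RM gave 31.3, 30.7, 26.1, 28.7 and 33.2. At the age of 3 months it was 34.4, 46.8, 36.02, 40.6 and 39.1 in 3mCON, 40.5, 35.9, 41.7, 36.9 and 36.7 in 3mCON+RM, 41.5, 33.7, 37.7, 31.8 and 34.7 in 3mTSCmKO, and 35.6, 29.3, 30.9, 30.2 and 29 in 3mTSCmKO+RM. It was not called for genotype or rapamycin, but it was the 1 member called lower in rapamycin-treated TSCmKO than in untreated CON at both ages (-0.41 ± 0.12, adjusted p = 0.00605 in older and -0.34 ± 0.12, adjusted p = 0.0355 in younger mice). The 3-month call was lost without 3mCON replicate 2, 4 or 5 or 3mTSCmKO+RM replicate 2, 3, 4 or 5 (-0.26 with adjusted p = 0.159 without 3mCON replicate 2). Gar1 (ENSMUSG00000028010, chr3:129824912-129831396) read 3.81, 3.18, 4.01, 3.66 and 4.73 in 3mCON and 3.57, 4.23, 3.48, 3.11 and 3.82 in 3mCON+RM. The 3mTSCmKO libraries read 2.77, 3.53, 2.77, 2.78 and 3.02, and 3mTSCmKO+RM gave 3.89, 5.12, 5.99, 4.08 and 4.57. Among 9-month mice the values were 4.13, 4.45, 3.17, 4.15 and 3.20 in 9mCON, 4.999, 6.17, 3.47, 3.78 and 4.79 in 9mCON+RM, 4.32, 4.001, 3.58, 3.98 and 2.84 in 9mTSCmKO, and 3.37, 5.07, 4.68, 4.96 and 4.76 in 9mTSCmKO+RM. All 5 3mTSCmKO+RM libraries were above all 5 3mTSCmKO libraries, and the 3-month control groups overlapped. Gar1 rose with rapamycin in 3-month TSCmKO (0.67 ± 0.16, adjusted p = 0.00149), with -0.09 ± 0.16 in CON. The difference between these responses (0.76 ± 0.23, adjusted p = 0.0488) was lost in 15 of 20 fits without 1 library, those without 3mCON replicate 1, 3, 4 or 5, 3mCON+RM replicate 1, 3, 4 or 5, 3mTSCmKO replicate 1, 3, 4 or 5 or 3mTSCmKO+RM replicate 2, 3 or 5 (0.66 with adjusted p = 0.114 without 3mTSCmKO+RM replicate 3).

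Nhp2 was called higher in 9mTSCmKO (0.61 ± 0.19, adjusted p = 0.011) and lower with rapamycin there (-0.54 ± 0.19, adjusted p = 0.0259). Neither call was made without 9mTSCmKO replicate 1 (0.36 with adjusted p = 0.108 for genotype, -0.32 with adjusted p = 0.178 for rapamycin) or without 9mTSCmKO replicate 3, and the second also not without 9mTSCmKO+RM replicate 2 or 3. Without both replicates 1 and 3 of 9mTSCmKO the values changed sign (-0.0057 ± 0.15, adjusted p = 0.982 for genotype and 0.07 ± 0.15, adjusted p = 0.784 for rapamycin). Nop10 (ENSMUSG00000027133, chr2:112261926-112263269), the smallest protein of the particle, read 59.9, 87.5, 45.9, 37.7 and 28.9 in 9mCON and 72.3, 54.7, 36.03, 44.96 and 48.3 in 9mCON+RM. For 9mTSCmKO the values were 69.1, 32.8, 68.5, 45.5 and 36.05, and 9mTSCmKO+RM gave 60.95, 39.6, 27.6, 44.1 and 46.9. For 3-month mice it read 31.2, 41.3, 40.8, 40.3 and 45.6 in 3mCON, 39.1, 53, 40.1, 49.6 and 32.4 in 3mCON+RM, 32.7, 31.4, 31.1, 46.2 and 29.6 in 3mTSCmKO, and 37.5, 34.2, 36.8, 32.03 and 30.5 in 3mTSCmKO+RM. Its libraries ranged more widely at 9 months than at 3 months within groups, the groups overlapped, and it was called in none of the comparisons.

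The small subunit factors, most of them parts of the processome that folds and cleaves the precursor of 18S ribosomal RNA, were called higher with rapamycin in numbers that differed between the comparisons. Of 11, 7 were called higher in 9-month TSCmKO, 5 in 3-month TSCmKO, 8 in 9-month CON and 1 in 3-month CON, with 0 called lower in each (edgeR, as above), beside 15.8%, 10.6%, 5.03% and 0.362% of all genes called higher. Utp14a (ENSMUSG00000063785, chrX:48256862-48282453), which binds the helicase that removes U3 RNA, read 16.8, 20.8, 17.9, 18.2 and 16.01 in 9mCON and 36.9, 41.8, 33.2, 30.3 and 36.4 in 9mCON+RM. Values in 9mTSCmKO were 27.6, 21.6, 22.2, 20.8 and 18.02, and 9mTSCmKO+RM gave 46.9, 40.7, 44.5, 39.5 and 47.4. The values at 3 months were 18.1, 17.3, 15.7, 18.8 and 19.4 in 3mCON, 29.1, 35.5, 28.99, 33.3 and 26.2 in 3mCON+RM, 18.2, 18.8, 16.4, 13.7 and 15.6 in 3mTSCmKO, and 32.8, 37.7, 39.9, 40.3 and 32.2 in 3mTSCmKO+RM. In each of the 4 rapamycin comparisons every treated library was above every vehicle library. The log2 fold changes were 0.99 ± 0.11 and 1.15 ± 0.11 in 9- and 3-month TSCmKO and 0.996 ± 0.11 and 0.78 ± 0.11 in 9- and 3-month CON (adjusted p = 8.27e-09, 3.26e-10, 1.99e-07 and 7.69e-05). The difference between genotypes in this response was -0.00 ± 0.15 in the older and 0.37 ± 0.15 in the younger mice (adjusted p = 0.992 and 0.221). Utp14a was also called higher in 9mTSCmKO than in 9mCON (0.30 ± 0.11, adjusted p = 0.031), but not without 9mCON replicate 5 or 9mTSCmKO replicate 1 (0.20 with adjusted p = 0.147 without 9mTSCmKO replicate 1).

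Tsr1 (ENSMUSG00000038335, chr11:74898071-74909342), which acts in the late cytoplasmic steps of small subunit maturation, read 21.1, 24.8, 30.3, 28.5 and 30.9 in 9mCON and 48.7, 69.3, 43.3, 53.3 and 51.97 in 9mCON+RM. In 9mTSCmKO it was 24.3, 31.9, 25.7, 30.4 and 28, and 9mTSCmKO+RM gave 37.2, 57.3, 52.8, 55.4 and 44.3. At the age of 3 months it was 31.1, 36.4, 29, 29.97 and 32.4 in 3mCON, 39.9, 56.3, 50.5, 42.5 and 40.3 in 3mCON+RM, 32.4, 33.4, 28.4, 20.9 and 27.5 in 3mTSCmKO, and 45.8, 48.4, 58.2, 41.1 and 38.5 in 3mTSCmKO+RM. Treated and vehicle libraries did not overlap in any of the 4 comparisons. It rose in 9- and 3-month TSCmKO (0.82 ± 0.14 and 0.71 ± 0.14) and in 9-month CON (0.98 ± 0.14), and read 0.53 ± 0.14, adjusted p = 0.0576 in 3-month CON. Nop14 (ENSMUSG00000036693, chr5:34638536-34660148), a processome protein, read 25.4, 28.1, 33.4, 31 and 26.8 in 9mCON and 38.2, 47.4, 40.95, 32.8 and 39.3 in 9mCON+RM. The 9mTSCmKO libraries read 43.7, 44.8, 39.99, 43.2 and 36.05, and 9mTSCmKO+RM gave 54.5, 60.6, 64.3, 71.8 and 60.9. Among 3-month mice the values were 30.4, 31.1, 24.7, 28.8 and 29.6 in 3mCON, 34.6, 33.7, 33.3, 36.9 and 33.7 in 3mCON+RM, 41.2, 40.2, 33.6, 25.2 and 35.5 in 3mTSCmKO, and 40.2, 46.96, 49.6, 47.5 and 38.8 in 3mTSCmKO+RM. At 9 months the groups stood in the order 9mCON, 9mTSCmKO and 9mTSCmKO+RM with no overlap between neighbours. Nop14 rose with loss of Tsc1 (0.52 ± 0.11, adjusted p = 0.000225) and again with rapamycin (0.59 ± 0.11, adjusted p = 6.24e-05), and also in 9mCON+RM (0.46 ± 0.11, adjusted p = 0.00456), where the call was lost in both limma fits and with the groups modelled alone (adjusted p up to 0.0785). In 3-month TSCmKO the rise (0.35 ± 0.11, adjusted p = 0.0163) was not called without 3mTSCmKO replicate 4 (0.24 with adjusted p = 0.0906) or 3mTSCmKO+RM replicate 3.

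Utp20 (ENSMUSG00000004356, chr10:88746607-88826804), a large scaffold of the processome, followed another course. It read 3.84, 2.49, 3.33, 4.69 and 4.60 in 9mCON and 3.11, 5.04, 6.08, 3.78 and 4.05 in 9mCON+RM. For 9mTSCmKO the values were 8.43, 5.88, 5.58, 5.66 and 5.08, and 9mTSCmKO+RM gave 2.90, 4.90, 5.87, 5.38 and 4.09. For 3-month mice it read 5.04, 3.64, 5.33, 3.69 and 5.58 in 3mCON, 4.84, 4.78, 5.39, 3.76 and 4.07 in 3mCON+RM, 2.64, 5.36, 3.24, 3.97 and 3.995 in 3mTSCmKO, and 5.84, 6.72, 5.61, 4.59 and 4.68 in 3mTSCmKO+RM. The 9mTSCmKO libraries were all above the 9mCON libraries, and the 3-month vehicle groups overlapped. Utp20 rose in 9mTSCmKO (0.68 ± 0.20, adjusted p = 0.0071), read -0.28 ± 0.20 at 3 months, and the difference between ages was 0.95 ± 0.28, adjusted p = 0.0412. This call was lost without 3mCON replicate 1, 3 or 5, 3mTSCmKO replicate 1, 3 or 5, 9mCON replicate 2 or 3 or 9mTSCmKO replicate 1 or 4 (0.79 with adjusted p = 0.108 without 9mTSCmKO replicate 1). It was also lost with the compared groups modelled alone and without both 9mTSCmKO replicates 1 and 3 (0.81 ± 0.29, adjusted p = 0.157). Rrp12, an export factor, rose with rapamycin in TSCmKO at 9 and 3 months (0.88 ± 0.16 and 0.64 ± 0.16) and in 9-month CON (0.64 ± 0.16), and so did the processome protein Wdr43 (0.61 ± 0.11, 0.38 ± 0.11 and 0.42 ± 0.11). The Wdr43 calls were not made without 3mTSCmKO replicate 4 (0.31 with adjusted p = 0.0539) and, in CON, without 9mCON replicate 1 or 9mCON+RM replicate 2 (0.34 with adjusted p = 0.0647 without 9mCON+RM replicate 2). Utp4, which joins the precursor early in the same module as Wdr43, rose at 9 months in both genotypes (0.41 ± 0.11 in TSCmKO and 0.43 ± 0.11 in CON). Bysl, a late small subunit factor, was called higher in 9mTSCmKO (0.26 ± 0.09, adjusted p = 0.0197), in 9mTSCmKO+RM (0.25 ± 0.09, adjusted p = 0.03) and in 9mCON+RM (0.40 ± 0.09, adjusted p = 0.00305), but the first not without 9mTSCmKO replicate 3 (0.20 with adjusted p = 0.0897) and the second not without 9mTSCmKO replicate 1, 2 or 4 or 9mTSCmKO+RM replicate 1, 2 or 4 (0.18 with adjusted p = 0.136 without 9mTSCmKO replicate 1). Nol6, a processome protein, was among these comparisons called in 9mCON+RM alone (0.35 ± 0.12, adjusted p = 0.0438), a call lost without 9mCON replicate 1, 2 or 3 or 9mCON+RM replicate 2, 4 or 5 (0.30 with adjusted p = 0.134 without 9mCON replicate 1), and Nol10 and Heatr1 were called in none of the genotype or rapamycin comparisons.

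The 9 large subunit factors measured include Pes1, Bop1 and Wdr12, which form the PeBoW complex needed to process the precursor of 28S and 5.8S ribosomal RNA. With rapamycin 4 of 9 were called higher and 2 lower in 9-month TSCmKO, 2 higher and 0 lower in 3-month TSCmKO, 3 higher and 0 lower in 9-month CON and 0 in 3-month CON (edgeR, 3 at an unadjusted p under 0.05). Over all genes 15.8% were called higher and 16.8% lower in the first of these, 10.6% and 13.0% in the second, and 5.03% and 6.82% in the third. Pes1 (ENSMUSG00000020430, chr11:3963975-3980004) read 29.3, 37.9, 38.7, 35.4 and 41.1 in 9mCON and 55.2, 54.4, 44.7, 47.1 and 48.2 in 9mCON+RM. Values in 9mTSCmKO were 47.5, 44.8, 49.04, 43.1 and 42.3, and 9mTSCmKO+RM gave 65.8, 56.9, 56.6, 54.8 and 49.9. The values at 3 months were 37.2, 40.5, 36.3, 37.3 and 37.3 in 3mCON, 45.3, 45.7, 45.1, 41.04 and 44.2 in 3mCON+RM, 44.6, 46.4, 35.05, 35.3 and 40.9 in 3mTSCmKO, and 42.1, 49.6, 48.05, 53.5 and 46.4 in 3mTSCmKO+RM. At 9 months the 3 other groups were each above 9mCON without overlap. Pes1 rose with loss of Tsc1 (0.31 ± 0.09, adjusted p = 0.00684), with rapamycin in 9-month TSCmKO (0.32 ± 0.09, adjusted p = 0.00619) and with rapamycin in 9-month CON (0.45 ± 0.09, adjusted p = 0.00105). These 3 calls were lost when the groups were modelled alone (adjusted p up to 0.0676, 0.0601 and 0.0506), and the first also without 9mTSCmKO replicates 1 and 3. The 3-month TSCmKO call (0.25 ± 0.09, adjusted p = 0.0471) was lost without 3mTSCmKO replicate 3, 4 or 5 or 3mTSCmKO+RM replicate 2, 3, 4 or 5 (0.20 with adjusted p = 0.149 without 3mTSCmKO replicate 4). Its partner Bop1 rose in the same rapamycin comparisons (0.40 ± 0.12, 0.35 ± 0.12 and 0.57 ± 0.12) and in 3mTSCmKO (0.36 ± 0.12, adjusted p = 0.0243). The first of these read 0.32 ± 0.13, adjusted p = 0.0671 without 9mTSCmKO replicates 1 and 3. The 3-month calls were lost without 3mTSCmKO replicate 4 or 3mTSCmKO+RM replicate 2 or 4 for rapamycin (0.29 with adjusted p = 0.0875 without 3mTSCmKO replicate 4), and without 3mCON replicate 1 or 3 or 3mTSCmKO replicate 2 or 5 for genotype (0.32 with adjusted p = 0.0728 without 3mTSCmKO replicate 5). The third partner, Wdr12, was called higher in 9mTSCmKO, like Pes1 (0.34 ± 0.11, adjusted p = 0.0167), but unlike Pes1 and Bop1 it fell with rapamycin there without overlap (-0.53 ± 0.11, adjusted p = 0.000432, and -0.34 ± 0.12, adjusted p = 0.032 without 9mTSCmKO replicates 1 and 3). In 3-month TSCmKO it read -0.30 ± 0.11 (adjusted p = 0.0563). The genotype call was not made without 9mTSCmKO replicate 1 or 3 (0.26 with adjusted p = 0.0784 without 9mTSCmKO replicate 3).

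Nip7 (ENSMUSG00000031917, chr8:107056877-107060931), which binds precursor RNA during large subunit assembly, had, with all libraries, the largest rise of any member with loss of Tsc1. It read 14.1, 14.6, 13.6, 13.2 and 10.4 in 9mCON and 16.9, 13.3, 9.41, 12.7 and 12.8 in 9mCON+RM. In 9mTSCmKO it was 40.5, 15.4, 32.5, 14.2 and 16.5, and 9mTSCmKO+RM gave 11.5, 13.2, 12.3, 15.2 and 14.4. At the age of 3 months it was 8.79, 12.01, 11.7, 10.8 and 13.3 in 3mCON, 11.1, 13.9, 12.2, 12.1 and 12.1 in 3mCON+RM, 11.1, 8.95, 10.5, 11.6 and 10.8 in 3mTSCmKO, and 11.9, 13.2, 11.97, 12.5 and 10.3 in 3mTSCmKO+RM. Replicates 1 and 3 of 9mTSCmKO stood far above the other 38 libraries, and the other 3 libraries of that group lay between 14.2 and 16.5 CPM, beside 10.4 to 14.6 CPM in 9mCON. Nip7 rose in 9mTSCmKO (0.86 ± 0.19, adjusted p = 0.000354) and fell with rapamycin there (-0.84 ± 0.19, adjusted p = 0.000625). Both calls were made in every fit without a single library, and the smallest changes were 0.58 with adjusted p = 0.00555 and -0.58 with adjusted p = 0.00688 without 9mTSCmKO replicate 1. Without both replicates 1 and 3 of 9mTSCmKO neither was called (0.23 ± 0.14, adjusted p = 0.204 and -0.21 ± 0.14, adjusted p = 0.296). The difference between ages in the genotype effect was 0.95 ± 0.27, adjusted p = 0.0292, and was lost without 3mCON replicate 3 or 5, 3mTSCmKO replicate 2, 9mCON replicate 5 or 9mTSCmKO replicate 1 or 3 (0.65 with adjusted p = 0.107 without 9mTSCmKO replicate 1). It was also lost with the compared groups modelled alone and without both 9mTSCmKO replicates 1 and 3 (0.32 ± 0.18, adjusted p = 0.435). The difference between genotypes in the response to rapamycin at 9 months was -0.83 ± 0.27, adjusted p = 0.0597. Of its 31-mers, 6.49% also occur in other protein-coding genes of the table.

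Wdr74 (ENSMUSG00000042729, chr19:8735827-8740624), which acts with a large AAA ATPase in large subunit maturation, read 5.04, 4.64, 4.83, 5.24 and 5.15 in 3mCON and 5.61, 6.58, 6.63, 5.96 and 5.06 in 3mCON+RM. The 3mTSCmKO libraries read 6.19, 7.97, 6.37, 5.66 and 6.77, and 3mTSCmKO+RM gave 5.98, 6.13, 6.85, 6.20 and 5.46. Among 9-month mice the values were 3.96, 7.02, 5.68, 5.40 and 5.32 in 9mCON, 9.12, 6.17, 4.63, 5.07 and 5.40 in 9mCON+RM, 6.19, 6.24, 7.04, 6.64 and 8.09 in 9mTSCmKO, and 8.14, 7.15, 6.14, 6.48 and 8.17 in 9mTSCmKO+RM. No 3mTSCmKO library overlapped with 3mCON (0.40 ± 0.15, adjusted p = 0.0496), but the call was lost without 3mCON replicate 1, 2, 3, 4 or 5 or 3mTSCmKO replicate 2, 3 or 5 (0.34 with adjusted p = 0.123 without 3mTSCmKO replicate 2). Gnl3 (ENSMUSG00000042354, chr14:31012433-31019152), the nucleolar GTPase nucleostemin, read 31.1, 45.4, 33.95, 32.7 and 28.4 in 9mCON and 48.1, 43.2, 35.96, 35.3 and 44.1 in 9mCON+RM. For 9mTSCmKO the values were 42.8, 33.5, 50.6, 37.7 and 39.8, and 9mTSCmKO+RM gave 42.3, 43.5, 38.8, 41.9 and 43.2. For 3-month mice it read 31.4, 38.6, 32.1, 31.3 and 31.5 in 3mCON, 34.6, 38.03, 30.2, 29.96 and 27.6 in 3mCON+RM, 38.02, 28.6, 32.4, 25.4 and 32.9 in 3mTSCmKO, and 33.4, 33.6, 45.7, 29.1 and 28.8 in 3mTSCmKO+RM. Its groups overlapped and it was called in no comparison of genotype or rapamycin, like Nop16. Nop2, a methyltransferase of 28S ribosomal RNA, rose with rapamycin at 9 months in TSCmKO (0.35 ± 0.12, adjusted p = 0.023) and in CON (0.44 ± 0.12, adjusted p = 0.014). These calls were lost without 9mTSCmKO replicate 1, 4 or 5 or 9mTSCmKO+RM replicate 2 (0.26 with adjusted p = 0.0969 without 9mTSCmKO replicate 5), and without 9mCON replicate 1 or 9mCON+RM replicate 2 (0.37 with adjusted p = 0.0602 without 9mCON replicate 1). Rrp1b, a nucleolar large subunit factor, rose in 9-month TSCmKO (0.39 ± 0.13, adjusted p = 0.0212), but not without 9mTSCmKO replicate 1 or 9mTSCmKO+RM replicate 3 (0.26 with adjusted p = 0.126 without 9mTSCmKO replicate 1).

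Of the 5 multifunctional nucleolar proteins, 4 were called higher with rapamycin in 9-month TSCmKO, 3-month TSCmKO and 9-month CON, the same 4 each time (Ncl, Npm1, Ddx21 and Mybbp1a), and 0 were called lower, beside 15.8%, 10.6% and 5.03% of all genes called higher. In 3-month CON edgeR called 0 of 5, with 4 at an unadjusted p under 0.05. The fifth, Nolc1, a snoRNP chaperone, read 0.29 ± 0.15, 0.26 ± 0.15 and 0.42 ± 0.15 and was not called. For genotype edgeR called 0 of 5 at either age (1 and 0 at an unadjusted p under 0.05 at 3 and 9 months). Ddx21 (ENSMUSG00000020075, chr10:62580251-62602281), an RNA helicase that senses polymerase I and II transcription, read 36.7, 37.8, 55.5, 53.9 and 62.2 in 9mCON and 70.05, 115, 86.7, 81.8 and 87.6 in 9mCON+RM. Values in 9mTSCmKO were 51.4, 52.1, 43.1, 45.5 and 40.6, and 9mTSCmKO+RM gave 90.1, 111, 122, 122 and 111. The values at 3 months were 56.4, 60.96, 46.2, 59.1 and 54.7 in 3mCON, 72.6, 77.7, 80.9, 78.7 and 74.7 in 3mCON+RM, 58.97, 58.1, 44, 35.3 and 39.1 in 3mTSCmKO, and 73.6, 91.1, 88.3, 99.4 and 83.5 in 3mTSCmKO+RM. Treated libraries were above vehicle libraries without overlap in all 4 comparisons. The log2 fold changes were 1.26 ± 0.14 and 0.89 ± 0.14 in 9- and 3-month TSCmKO, 0.84 ± 0.14 in 9-month CON and 0.47 ± 0.14, adjusted p = 0.118 in 3-month CON. The difference between genotypes was 0.41 ± 0.20 at 9 months and 0.42 ± 0.20 at 3 months and was called at neither age (adjusted p = 0.227 and 0.3).

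Ncl (ENSMUSG00000026234, chr1:86344719-86359400), which binds nascent precursor RNA, read 259.8, 298, 285, 302 and 262 in 9mCON and 403, 559.5, 451, 376 and 489 in 9mCON+RM. In 9mTSCmKO it was 395, 345, 279, 306 and 235, and 9mTSCmKO+RM gave 487, 518, 517, 596 and 482. At the age of 3 months it was 305, 288, 217, 269 and 254 in 3mCON, 349.9, 313, 309, 381 and 349.6 in 3mCON+RM, 276, 243, 202, 173 and 228 in 3mTSCmKO, and 299.5, 376, 431, 321 and 288 in 3mTSCmKO+RM. Every rapamycin group was above its vehicle group without overlap. Ncl rose in 9-month TSCmKO (0.74 ± 0.13, adjusted p = 3.73e-05), 3-month TSCmKO (0.61 ± 0.13, adjusted p = 0.000539) and 9-month CON (0.70 ± 0.13, adjusted p = 0.000483). Npm1 (ENSMUSG00000057113, chr11:33152287-33163206), a histone and ribosomal protein chaperone, read 332, 517, 264, 286 and 224 in 9mCON and 982, 739, 552, 504 and 659.6 in 9mCON+RM. The 9mTSCmKO libraries read 542, 241, 448, 229.6 and 231, and 9mTSCmKO+RM gave 797, 521, 465, 567.9 and 567.7. Among 3-month mice the values were 298, 272, 259.7, 314 and 267 in 3mCON, 470.2, 428, 433, 578 and 426 in 3mCON+RM, 232, 165, 205, 206 and 182 in 3mTSCmKO, and 370.5, 412, 461, 414 and 361 in 3mTSCmKO+RM. At 3 months the treated and vehicle groups did not overlap in either genotype, and 3mTSCmKO lay below 3mCON (-0.51 ± 0.21, adjusted p = 0.0747, not called). At 9 months single vehicle libraries (9mCON replicate 2, 9mTSCmKO replicate 1) reached into the treated range. Npm1 rose with rapamycin in 9-month TSCmKO (0.79 ± 0.21, adjusted p = 0.00314) and read 0.73 ± 0.21, adjusted p = 0.0917 in 3-month CON. Without 9mTSCmKO replicates 1 and 3, its 2 highest libraries in that group, the first value was larger by selection (1.32 ± 0.20). Of the Npm1 31-mers 35.9% also occur in annotated transcripts of another gene of any type, and of those of Pes1 and Nop56 34.0% and 32.8%, so that copies may have contributed counts to these genes. Mybbp1a, a repressor and ribosomal RNA processing factor, rose by 0.87 ± 0.13, 0.73 ± 0.13 and 0.52 ± 0.13 in the same 3 comparisons.

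**Figure D4:**
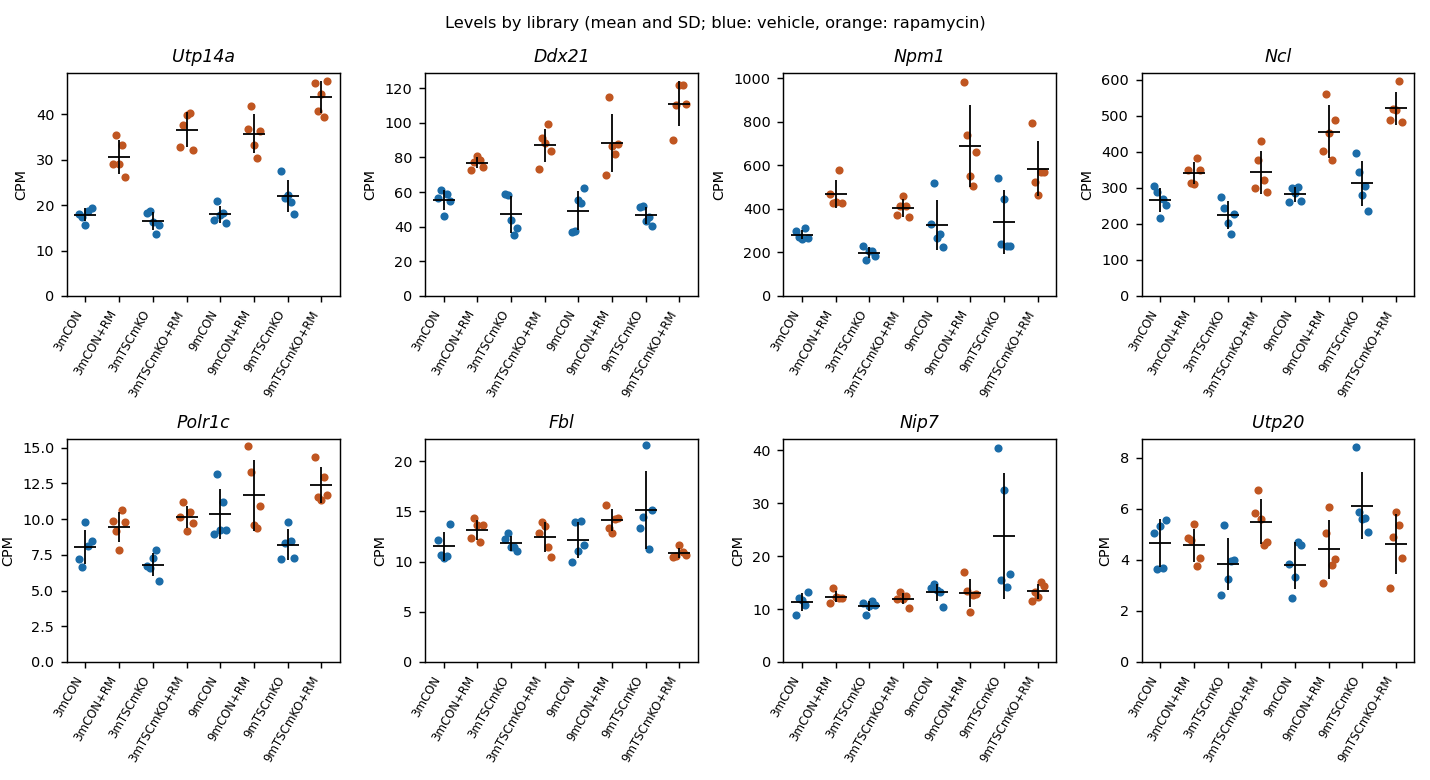
CPM (vertical axes, from 0) of 8 members in the 5 libraries of each group (horizontal axes), with group mean and SD in black, vehicle in blue and rapamycin in orange. Utp14a and Ddx21 are higher in each rapamycin group than in its vehicle group with no overlap, while Nip7 is highest in 9mTSCmKO replicates 1 and 3.

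Rapamycin-treated TSCmKO muscle was also compared with untreated CON muscle. This difference holds the response to rapamycin together with the genotype difference. Utp14a and Ddx21, for example, also rose with rapamycin in 9-month CON. The comparison therefore does not measure a return to control levels alone. At 9 months 18 of 39 members were called higher, against 15.7% of all genes tested, and 1 lower, against 16.2%. At 3 months 14 were called higher, against 8.98%, and 1 lower, against 7.71%. Utp14a (1.29 ± 0.11, adjusted p = 1.61e-11), Ddx21 (1.18 ± 0.14, adjusted p = 2.83e-08), Nop14 (1.11 ± 0.11, adjusted p = 5.03e-10) and Rrp12 (1.05 ± 0.16, adjusted p = 2.33e-06) differed most at 9 months, and Utp14a (1.04 ± 0.11, adjusted p = 6.88e-09) and Polr1e (0.97 ± 0.22, adjusted p = 0.00152) at 3 months. Fbl (-0.16 ± 0.12), Nhp2 (0.06 ± 0.19), Wdr12 (-0.19 ± 0.11) and Nip7 (0.02 ± 0.19) were not called at 9 months, and neither were Polr1c (0.25 ± 0.13) and Ubtf (-0.05 ± 0.10). The genotype calls of these members at 9 months were not made without 9mTSCmKO replicates 1 and 3. These comparisons use the same vehicle controls as the genotype comparisons and the same treated libraries as the rapamycin comparisons. At 3 months 23 members were called when these groups were modelled alone. At 9 months 4 of 5 fibroblast, 3 of 5 macrophage, 1 of 4 adipocyte and 1 of 4 Schwann cell markers were called lower and 1 of 6 muscle fiber markers higher, and at 3 months 2 of 5 macrophage and 1 of 6 muscle fiber markers were called higher. Their part in the result was not tested.

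A list of 95 other biogenesis factors, of which 92 were tested, was counted in the same fit. With rapamycin 23 were called higher and 8 lower in 9-month TSCmKO, beside 15.8% and 16.8% of all genes tested. In 3-month TSCmKO these counts were 13 and 6, beside 10.6% and 13.0%, and in 9-month CON 19 and 0, beside 5.03% and 6.82%. In 3-month CON edgeR called 0 in either direction, with 14 at an unadjusted p under 0.05. With loss of Tsc1 25 were called higher and 7 lower at 9 months, beside 19.1% and 18.9% of all genes. At 3 months 5 were called higher and 3 lower, smaller shares than the 11.4% and 8.32% of all genes. The median log2 fold change of these factors was 0.11, 0.06, 0.16 and 0.08 in the 4 rapamycin comparisons in the order above and 0.13 and 0.04 for genotype at 9 and 3 months. The cytosolic ribosomal proteins, the building blocks that these factors assemble, were counted in the same way. Of 77 tested, 0 were called higher and 1 lower with rapamycin in 9-month TSCmKO, 2 and 1 in 3-month TSCmKO and 5 and 0 in 9-month CON, and edgeR called 0 in 3-month CON, with 15 at an unadjusted p under 0.05. The shares of all genes called with rapamycin are those given above. For genotype 0 were called higher and 5 lower at 9 months, beside 19.1% and 18.9% of all genes, and 0 and 9 at 3 months, beside 11.4% and 8.32%. The median log2 fold change of the ribosomal proteins was 0.0026 and 0.13 with rapamycin in 9- and 3-month TSCmKO and 0.22 in CON at both ages. For genotype it was -0.088 at 9 months and -0.22 at 3 months, beside -0.02 over all genes at both ages.

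Myc, a transcription factor known to activate many ribosome biogenesis genes, was in the list of the Myc network, of which 8 genes were tested. Its level was 1.91 to 4.31 CPM in 3mTSCmKO and 5.64 to 10.3 CPM in 3mCON, without overlap, and 5.29 to 13.6 CPM in 3mTSCmKO+RM. At 9 months Myc was 2.77 to 8.32 CPM in 9mTSCmKO, 4.22 to 11.8 CPM in 9mCON and 10.3 to 17.0 CPM in 9mTSCmKO+RM. Myc fell with loss of Tsc1 at 3 months (-1.28 ± 0.29, adjusted p = 0.00118), read -0.66 ± 0.28, adjusted p = 0.0659 at 9 months, and rose with rapamycin in TSCmKO (1.48 ± 0.28, adjusted p = 9.91e-05 in older and 1.56 ± 0.29, adjusted p = 9.15e-05 in younger mice). In CON the difference with rapamycin was 0.28 ± 0.28, adjusted p = 0.585 in older and 0.32 ± 0.28, adjusted p = 0.862 in younger mice, and neither was called. The difference between genotypes in the response of Myc was 1.19 at 9 months and 1.24 at 3 months, and this test called 0 of the 8 genes of the list at either age (edgeR, 2 and 4 at an unadjusted p under 0.05). Mxd1, which competes with Myc for its partner Max, fell with rapamycin in TSCmKO (-0.75 ± 0.17, adjusted p = 0.000781 and -0.72 ± 0.16, adjusted p = 0.000994) and read -0.33 ± 0.17, adjusted p = 0.231 in 9-month CON. Mxi1, of the same family as Mxd1, moved the other way at 9 months, with 67.4 to 104 CPM in 9mCON and 106 to 120.5 CPM in 9mCON+RM, and 74.5 to 104 CPM in 9mTSCmKO and 105 to 142 CPM in 9mTSCmKO+RM (0.43 ± 0.11, adjusted p = 0.00537 in CON and 0.42 ± 0.11, adjusted p = 0.00237 in TSCmKO). Over the 8 genes, 3 were called higher and 2 lower with rapamycin in 9-month TSCmKO, beside 15.8% and 16.8% of all genes tested. The counts were 2 and 3 in 3-month TSCmKO, beside 10.6% and 13.0%, and 2 and 0 in 9-month CON, beside 5.03% and 6.82%. In 3-month CON edgeR called 0 (0 at an unadjusted p under 0.05). Whether these changes bear on the members was not tested.

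The E-box CACGTG, the word that Myc and its partners bind, was searched in the promoter windows of RefSeq (build GRCm38.p6, 250 bases before and 50 bases from the annotated start of a gene). The word reads the same on both strands and does not overlap with the second word searched. Windows were found for 34 of the 40 symbols (42 windows), and 8 of the 34 held the word (23.5%), beside 19.5% of 82 other biogenesis factors, 10.3% of 58 cytosolic ribosomal proteins, 9.84% of the 16113 genes of the count table with a window and 8.09% of all 27025 genes with a window. The 9 sites are shown with up to 12 bases on each side, with the E-box in capitals, because these members include several that rose with rapamycin. The 2 sites of Rrn3 begin 215 and 48 bases before the start and that of Nop2 60 bases before it, and the others begin at base 3 (Pes1), 16 (Utp4), 18 (Wdr43), 25 (Tsr1), 38 (Utp20) and 41 (Mybbp1a) of the gene. Each is written 5′ to 3′ on the strand of its gene, from chr16:13780472-13780501 (+) and chr16:13780639-13780668 (+) for Rrn3, chr6:125131811-125131840 (+) for Nop2, chr11:3963965-3963994 (+) for Pes1, chr8:106893643-106893672 (+) for Utp4, chr17:71616220-71616249 (+) for Wdr43, chr11:74898092-74898121 (+) for Tsr1, chr10:88826765-88826789 (-) for Utp20 and chr11:72441355-72441376 (+) for Mybbp1a.
Rrn3: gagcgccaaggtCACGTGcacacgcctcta
Rrn3: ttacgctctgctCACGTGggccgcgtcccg
Nop2: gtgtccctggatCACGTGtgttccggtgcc
Pes1: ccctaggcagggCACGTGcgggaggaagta
Utp4: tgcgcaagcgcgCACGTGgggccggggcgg
Wdr43: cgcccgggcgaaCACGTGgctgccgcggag
Tsr1: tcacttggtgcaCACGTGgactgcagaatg
Utp20: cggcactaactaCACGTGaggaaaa
Mybbp1a: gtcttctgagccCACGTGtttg

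The 3 rapamycin comparisons with many calls contained both members with the word and members without it. Mybbp1a, Pes1, Tsr1 and Wdr43 hold it and were called higher in all 3, whereas Ddx21, Ncl, Nop14 and Utp14a have a window without it and were called higher as well. Rrn3 holds it at 2 sites and was not called. The word CCGGAA, the core bound by ETS factors, was found on either strand in windows of 16 of the 34 members (47.1%), 62.2% of the other biogenesis factors, 56.9% of the cytosolic ribosomal proteins, 22.8% of the genes of the count table and 16.7% of all genes. A match to these letters is a description of the window and not a measured binding site.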

How the data were processed

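Poly(A) RNA of whole EDL lysate from 40 mice was sequenced as single-end, stranded libraries. According to the study's methods and the submitters' processing notes, the authors trimmed reads with Cutadapt 1.9.1 and assigned them with kallisto 0.43.1 to protein-coding transcripts of GRCm38. A read matching more than 1 transcript was divided equally, and transcripts were added up by gene. These tables, as deposited, hold estimated counts, as whole numbers, and TPM values (transcript abundances) that the authors scaled by transcript length.

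Counts were tested with edgeR 4.0.16 in R 4.3.3 (quasi-likelihood test, TMM scaling, 8 group means over all 40 libraries, genes with at least 1 CPM in at least 5 libraries). P-values were adjusted after Benjamini and Hochberg over 13543 genes, with a threshold of 0.05, and the script was tested on simulated data. Errors of fold changes are standard errors. Groups came from the labels, and 5 mice per group were compared, so that p-values measure the spread between these mice. Alternatives were DESeq2 1.42.0, RLE and upper-quartile scaling, no filter, the compared groups alone, insert size as a term, a replicate block, limma 3.58.1 on log2(TPM + 1) and log2(TPM + 0.1), leaving out each library in turn and, added after the data were seen, leaving out both 9mTSCmKO replicates 1 and 3. The members and all gene lists were chosen with earlier results of these data known. Genes with values in every library were named by a rule: the 2 members of each role with the highest mean TPM, the member with the largest called rise and the one with the largest called fall for genotype and for rapamycin in TSCmKO at each age, and each member called in an interaction. Gene positions are from GENCODE on GRCm38, and promoter windows from RefSeq. Total counts of 8883870 to 35224669 per library limit the precision of the least abundant members.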

Additional observations from a re-analysis of the deposited data

Results flagged for a closer look

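Among the members, 4 had an effect that differed between groups by an interaction test in edgeR. These counts were close to or below the shares of all genes, with 2 of 39 for genotype by age, beside 3.01% called higher and 1.93% lower, and 1 of 39 for rapamycin by genotype at each age, beside 2.56% and 2.31% at 9 months and 1.36% and 2.09% at 3 months. The genotype effect was larger at 9 than at 3 months for Utp20, by 0.95 ± 0.28 (log2 units with SE, adjusted p = 0.0412), and for Nip7, by 0.95 ± 0.27 (adjusted p = 0.0292). The response of Fbl to rapamycin at 9 months was lower in TSCmKO than in CON by 0.70 (interaction -0.70 ± 0.17, adjusted p = 0.0137), and that of Gar1 at 3 months was higher in TSCmKO by 0.76 ± 0.23 (adjusted p = 0.0488). Age and library preparation cannot be told apart in the first 2 of these, and neither of them was called without 9mTSCmKO replicates 1 and 3. With the compared groups modelled alone, the calls of Utp20, Nip7 and Fbl were not made.

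Of 320 groups of 5 values examined (the CPM of the 39 members and the median deviation of the members, in 8 groups each), 18 had 1 library far from the other 4 by Dixon's criterion, and chance alone marks about 1 in 20 such groups. In 9mTSCmKO replicate 1 this held for Polr1e with 0.884 CPM, beside 4.56 to 5.001 CPM in the other 4 libraries, Nop58 with 73.03 CPM, beside 28.7 to 40.8 CPM, Dkc1 with 46.1 CPM, beside 31.9 to 35.1 CPM, and Utp20 with 8.43 CPM, beside 5.08 to 5.88 CPM. In 9mTSCmKO+RM replicate 1 Nop56 read 49.0 CPM, beside 30.6 to 34.5 CPM, and Gar1 3.37 CPM, beside 4.68 to 5.07 CPM. In 9mCON+RM replicate 1 Polr1b read 16.4 CPM, beside 10.8 to 12.2 CPM, Nhp2 23.7 CPM, beside 13.5 to 15.99 CPM, and Wdr12 47.4 CPM, beside 35.5 to 37.7 CPM. In 9mCON replicate 2 Nop56 read 51.1 CPM, beside 29.7 to 35.5 CPM, and Wdr12 55.2 CPM, beside 35.2 to 40.6 CPM, and Nolc1 read 21.2 CPM in 9mCON replicate 1, beside 30.9 to 34.3 CPM. At 3 months Pes1 read 40.5 CPM and Gnl3 38.6 CPM in 3mCON replicate 2, beside 36.3 to 37.3 CPM and 31.3 to 32.1 CPM. Nop10 read 46.2 CPM in 3mTSCmKO replicate 4, beside 29.6 to 32.7 CPM, Npm1 577.9 CPM in 3mCON+RM replicate 4, beside 426 to 470.2 CPM, Gnl3 45.7 CPM in 3mTSCmKO+RM replicate 3, beside 28.8 to 33.6 CPM, and Bysl 32.3 CPM in 3mTSCmKO+RM replicate 5, beside 36.6 to 38.3 CPM.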

How the results depend on the processing

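Of the members called, Nhp2 changed sign when 9mTSCmKO replicates 1 and 3 were both left out (-0.0057 for genotype at 9 months and 0.07 for rapamycin in 9-month TSCmKO), and the other calls kept their direction in the alternatives run. Modelling the compared groups alone moved the number of members called from 14 to 4 for genotype at 9 months, from 2 to 0 (3 at an unadjusted p under 0.05) for the genotype by age interaction, from 23 to 14 and from 16 to 8 for rapamycin at 9 months in TSCmKO and CON, from 1 to 5 for rapamycin in 3-month CON, from 1 to 0 (5 unadjusted) for the rapamycin by genotype interaction at 9 months, and from 15 to 23 for treated TSCmKO against untreated CON at 3 months. Without a filter on low counts 9 members were called for genotype at 9 months, 1 for genotype at 3 months, 1 for genotype by age and 0 for the interaction with rapamycin at 3 months. With insert size as a term these last 3 were 1, 1 and 0, with RLE scaling genotype at 3 months gave 1 and the 3-month interaction 0 (4 unadjusted in each 0), and with a replicate block genotype at 3 months and genotype by age gave 1 each. For rapamycin in 3-month CON upper-quartile scaling, insert size, the block and both limma fits gave 2 and DESeq2 4, and DESeq2 gave 2 for the 9-month interaction. With 9mTSCmKO replicates 1 and 3 both left out, chosen after seeing the data, 4 members were called for genotype at 9 months and 0 for genotype by age (1 unadjusted), 17 for rapamycin in 9-month TSCmKO and 1 for the interaction at 9 months. Among the 9-month genotype calls, both limma fits lost Polr1a, Ubtf and Nop58, the fit with no filter lost Polr1a, Polr1c, Fbl, Utp14a and Bysl, and the block lost Polr1c and Fbl. For rapamycin in 9-month TSCmKO both limma fits lost Ubtf, Bysl and Rrp1b, and the fits with no filter and with insert size lost Ubtf. In 3-month TSCmKO both limma fits lost Polr1b and the one on log2(TPM + 0.1) also Polr1e, the fit with no filter lost Bop1 and Pes1, and RLE scaling, insert size and the groups modelled alone lost Pes1. In 9-month CON upper-quartile scaling and no filter lost Nol6, and limma on log2(TPM + 1) lost Nop2. For treated TSCmKO against untreated CON both limma fits lost Polr1a at both ages and Polr1b, Dkc1 and Heatr1 at 3 months, the fit with no filter lost Wdr74 at 9 months and Polr1a, Dkc1 and Heatr1 at 3 months, insert size lost Wdr74 and Polr1a there, the groups modelled alone lost Polr1a and Wdr74 at 9 months, and limma on log2(TPM + 0.1) lost Polr1e at 9 months. For genotype at 3 months both limma fits lost Bop1, and both other scalings, no filter, insert size and the block lost Wdr74. Upper-quartile scaling moved the higher share of all calls with rapamycin in 3-month TSCmKO from 44.9% to 55.7%.

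Leaving out 1 library gave 9 to 14 calls for genotype at 9 months, 0 to 3 at 3 months, 0 to 2 for genotype by age, 17 to 26 and 11 to 16 for rapamycin in 9- and 3-month TSCmKO, 13 to 17 and 1 to 2 in 9- and 3-month CON, 1 to 3 and 0 to 2 for the interactions at 9 and 3 months, and 17 to 20 and 11 to 15 for treated TSCmKO against untreated CON. Correlations between the deviations of libraries with the same replicate number had both signs (from -0.422 to 0.361), so the numbers were not read as pairs. Both extremes were in the genotype comparison at 9 months (0.361, -0.422, -0.3, 0.341 and 0.0418 for replicates 1 to 5). The 9mTSCmKO+RM replicate 5 library, whose label gives no insert size, was left out of the fit with that term. Counts under 100 reads in the lowest members limit their precision. The cause of these changes was not tested.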
